A study of Homo sapiens with 12 samples.

Results

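The integrins and laminins described here are 37 of the 20003 genes in the deposited expression table: 18 integrin alpha chains, 8 integrin beta chains and 11 laminin chains. They were taken by symbol, from the ITGA, ITGB, LAMA, LAMB and LAMC series together with ITGAV, ITGAE, ITGAM, ITGAL, ITGAX, ITGAD and ITGA2B. The rule itself used no measured value, but the family was chosen with earlier results of these data known, so its counts are a description. The study overexpressed the zinc finger transcription factor ZNF263, or a control vector, in 3 lung adenocarcinoma lines known to carry activating EGFR mutations, PC9, HCC827 and H1975, and sequenced 2 RNA libraries per group. The 6 groups were ZNF263-overexpressing PC9, control PC9, ZNF263-overexpressing HCC827, control HCC827, ZNF263-overexpressing H1975 and control H1975, 12 libraries in all. The sample titles name the lines PC9OR, HCC827OR and H1975OR, and the labels do not explain OR; the names PC9, HCC827 and H1975 stand for these cells below, which need not be the parental lines. Cells of all 6 groups, the controls included, were grown in DMEM and carry the treatment label stepwise osimertinib, an inhibitor of mutant EGFR, so no group stands for untreated cells. These are cultured tumour lines with a forced level of 1 factor, and the labels give neither the clones nor the promoter of the vector.

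Laminins are cross-shaped trimers of an alpha, a beta and a gamma chain that are secreted and assemble into the basement membrane under epithelial sheets. Integrins are transmembrane pairs of an alpha and a beta chain that hold cells to laminins, collagens, fibronectin and other ligands and connect them to the cytoskeleton. In lung epithelium laminin-332, which holds the LAMA3 and LAMB3 chains, is bound by integrin α6β4 in hemidesmosomes and by α3β1, while the LAMA5, LAMB1 and LAMC1 chains form laminin-511.

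ZNF263 itself was read at 39.3 and 39.0 FPKM (fragments per kilobase of transcript, scaled to the reads mapped in the library) in ZNF263 PC9 cells, against 9.55 and 9.11 FPKM in control PC9 cells. It was read at 19.6 and 19.8 FPKM in ZNF263 HCC827 cells, against 13.2 and 11.8 FPKM in control HCC827 cells. It was read at 39.1 and 39.8 FPKM in ZNF263 H1975 cells, against 10.2 and 9.63 FPKM in control H1975 cells, so the rise was smallest in HCC827 (0.62 on the log2 scale). Each library had between 10672 and 10997 genes at 1 FPKM or more, and 1 FPKM of a gene of median length stood for about 65.8 to 131 reads. Of 8 epithelial markers, all 8 were at 1 FPKM or more in HCC827 and H1975, and only CDH1, KRT8 and KRT18 in PC9. Genes without a value differ between lines (0 in PC9, 3383 in HCC827 and 3339 in H1975), and whether the lines were normalised together is not given in the sources used here, which bears on every level set across lines below.

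Changes are differences of log2(FPKM + 1), ZNF263 minus control, with the standard error (SE) and the Benjamini-Hochberg adjusted p of limma over all genes tested. A gene was tested if 2 of the 12 libraries held at least 1 FPKM, and called at an adjusted p under 0.05. Whether the 2 libraries of a group overlapped those of the other group is given as a description. The share of all genes without overlap was not counted. Of the 37 genes, 23 were tested. The other 14 reached 1 FPKM in no library: ITGA2B, ITGA4, ITGA7, ITGA8, ITGA9, ITGAD, ITGAL, ITGAM, ITGAX, ITGB7, LAMA1, LAMA2, LAMA4 and LAMB4, of which LAMA2 came highest at 0.754 FPKM and ITGA8 had values in PC9 only. Most of these are chains of blood cells, muscle and vessels, among them ITGAL, ITGAM and ITGAX of leukocytes and ITGA2B of platelets.

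Calls were most frequent in H1975. There 9 of the 23 tested genes rose and 10 fell, where 32.1% of all genes tested rose and 32.1% fell. In PC9, 3 rose (ITGB4, LAMB2 and LAMB3) and 5 fell (ITGA2, ITGA5, ITGA6, LAMA3 and LAMC1), against 7.21% of all genes higher and 4.12% lower. In HCC827, 3 rose (ITGAV, ITGB4 and LAMB1) and 3 fell (ITGA3, ITGA5 and LAMB3), against 13.0% of all genes higher and 6.44% lower. In HCC827 the balance of all calls moved with the scaling: 66.9% of the called genes were higher as deposited, against 51.5% after median-of-ratios scaling and 50.5% after quantile normalisation. The median size of the change, whatever its sign, was 0.75 for the 23 genes in H1975 beside 0.29 for all genes, 0.19 beside 0.091 in PC9, and 0.10 beside 0.11 in HCC827. These medians were not matched for expression level, and the log2(FPKM + 1) scale understates changes of low genes. Without PC9 control replicate 1, control replicate 2 or ZNF263 replicate 1, the 8 calls in PC9 became 4, 2 and 3 (763, 591 and 726 genes in all, against 1430), and without HCC827 ZNF263 replicate 2 the 6 calls in HCC827 became 3. With its sign the median change was -0.0050 in H1975, -0.051 in PC9 and 0.017 in HCC827, beside 0.0025, 0 and 0.045 for all genes.

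**Figure D1:**
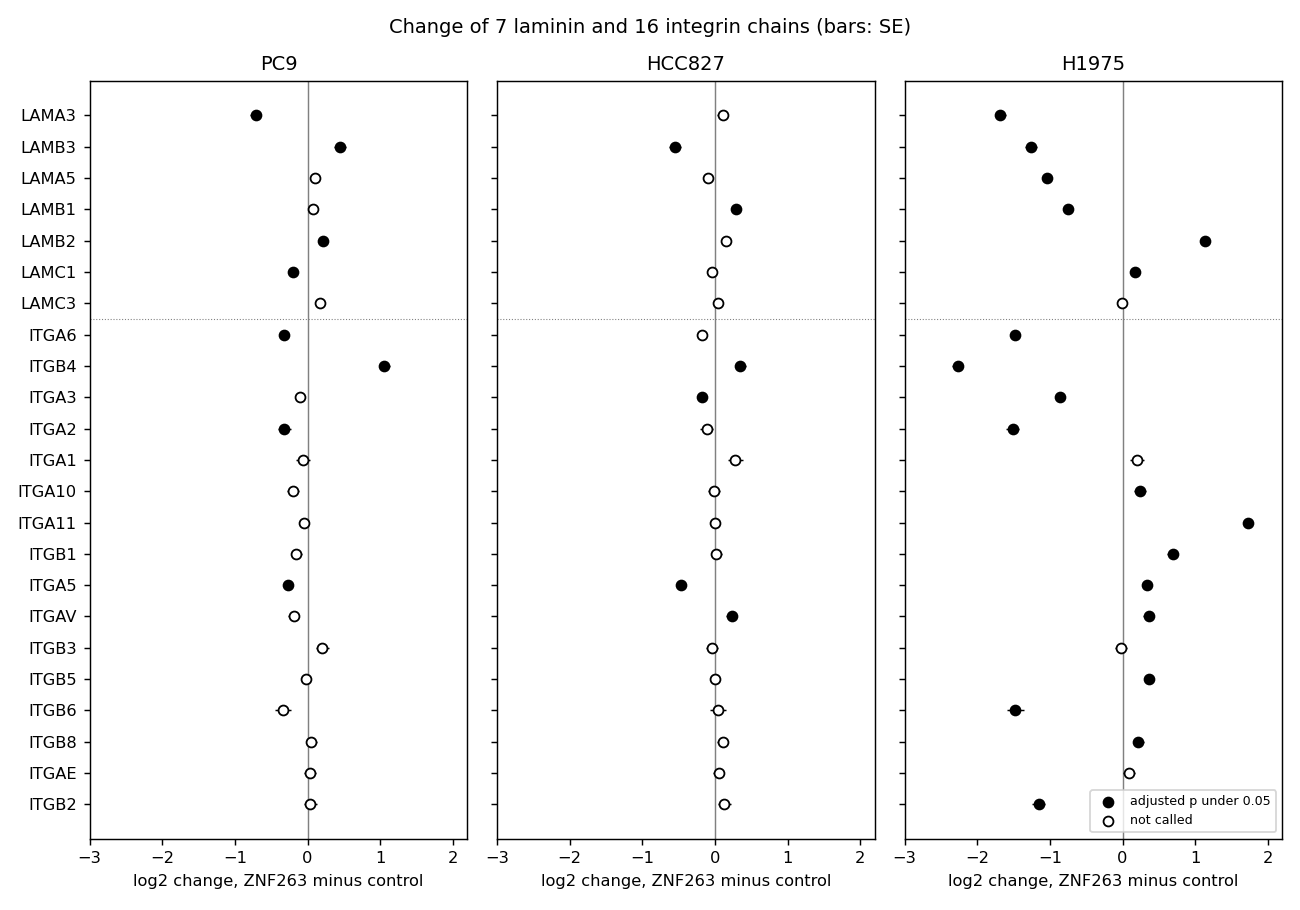
Log2 change (ZNF263 minus control, horizontal axis) of the 7 laminin and 16 integrin chains shown, in PC9, HCC827 and H1975; points are fitted changes, bars are SE and often smaller than the point, and filled points passed the adjusted p threshold of 0.05. H1975 spans 1.73 (ITGA11) to -2.27 (ITGB4), while PC9 passes 1 only at ITGB4.

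The chains that moved differed between the lines. Of the 23 genes, 19 were called in at least 1 line and 3 in all 3 lines (ITGA5, ITGB4 and LAMB3), and none of these kept its direction across the 3 lines. Of all genes tested in the 3 lines, 71.9% were called in at least 1 line, 3.0% (366 of 12218) in all 3 lines and 1.60% in all 3 in the same direction. Calls in both directions were found for 5 genes, ITGA5, ITGB4, LAMB1, LAMB3 and LAMC1, against 8.46% of all genes. An F test of the difference of the change between lines called 18 of the 23, where it called 60.4% of all genes tested. The 5 not called by it were ITGA1, ITGAE, ITGB3, ITGB8 and LAMC3.

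Start sites of these genes were looked up in the RefSeq promoter table, assembly GRCh38.p14, which gave a window of 250 bases before to 50 bases after a start for 18 of the 23 tested genes, 25 windows in all. The motifs searched were 3, each on both strands, TGAGTCA, the AP-1 site, GGAGGA, the repeated core of the G-rich motif known for ZNF263, and CAGGTG, an E-box bound by the ZEB and SNAI repressors. None of the 3 contains another. TGAGTCA stood in 3 of the 25 windows and in 4.95% of all 35116 windows of the table. GGAGGA stood in 9 of the 25 windows and in 36.6% of all windows, and CAGGTG in 7 of the 25 and in 20.6% of all. No share of all windows was counted for several matches in 1 window. The windows below are those with TGAGTCA, from LAMA3, LAMB3 and ITGA5, and that of ITGAV, with 6 GGAGGA matches, some of them overlapping. Each runs 5′ to 3′ on the gene's strand with the match just named in capitals, so a match to the other strand reads TGACTCA or TCCTCC. The LAMA3 window, chr18:23872770-23873069 on the plus strand, has a match on each strand. The LAMB3 window is chr1:209651325-209651624 on the minus strand. The ITGA5 window is chr12:54419217-54419516 on the minus strand, its match at bases 245 to 251 next to the start. The ITGAV window is chr2:186589806-186590105 on the plus strand. The LAMA3, LAMB3 and ITGA5 starts lie inside the gene's full span in GENCODE 29. These matches describe the letters only.
LAMA3: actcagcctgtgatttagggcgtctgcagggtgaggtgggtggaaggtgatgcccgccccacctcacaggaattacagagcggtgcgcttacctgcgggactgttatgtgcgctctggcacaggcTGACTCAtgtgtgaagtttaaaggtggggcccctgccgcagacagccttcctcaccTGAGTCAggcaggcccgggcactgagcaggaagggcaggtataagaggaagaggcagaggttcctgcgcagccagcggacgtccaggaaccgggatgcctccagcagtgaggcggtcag
LAMB3: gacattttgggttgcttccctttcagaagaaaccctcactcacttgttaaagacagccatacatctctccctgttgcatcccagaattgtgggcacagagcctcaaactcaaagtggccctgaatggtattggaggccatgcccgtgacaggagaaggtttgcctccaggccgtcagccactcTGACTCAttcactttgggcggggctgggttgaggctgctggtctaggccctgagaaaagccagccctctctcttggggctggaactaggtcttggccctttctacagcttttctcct
ITGA5: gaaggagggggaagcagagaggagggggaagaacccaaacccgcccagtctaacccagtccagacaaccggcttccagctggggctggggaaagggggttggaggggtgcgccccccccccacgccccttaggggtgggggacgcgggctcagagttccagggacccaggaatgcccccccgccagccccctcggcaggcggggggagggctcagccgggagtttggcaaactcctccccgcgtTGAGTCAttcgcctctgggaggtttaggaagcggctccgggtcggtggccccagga
ITGAV: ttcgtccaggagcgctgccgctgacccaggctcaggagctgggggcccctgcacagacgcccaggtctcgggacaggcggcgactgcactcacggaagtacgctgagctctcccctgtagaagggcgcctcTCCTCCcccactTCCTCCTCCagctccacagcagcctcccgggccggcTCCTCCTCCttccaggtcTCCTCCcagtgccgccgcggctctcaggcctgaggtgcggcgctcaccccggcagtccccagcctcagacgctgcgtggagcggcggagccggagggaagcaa

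The laminin-332 chains LAMA3 and LAMB3 fell together in H1975. LAMA3, the alpha 3 chain (chromosome 18, 23689443 to 23956222, plus strand, GRCh38), was at 4.65 and 4.92 FPKM in ZNF263 cells and 16.95 and 18.2 FPKM in control cells, a log2 change of -1.68 ± 0.071 (SE, n = 2 per group, limma adjusted p = 5.84e-10). LAMB3, the beta 3 chain (chromosome 1, 209614870 to 209652466, minus strand), was at 124 and 123 FPKM in ZNF263 cells and 304 and 290.0 FPKM in control cells, a change of -1.25 ± 0.083 (adjusted p = 3.57e-08). For both chains both ZNF263 libraries lay below both control libraries. Among the laminin chains reported here LAMB3 was still the most abundant in ZNF263 H1975 cells. The genes around LAMB3 also fell, with a median change of -0.48 over 40 neighbours, and less that median LAMB3 changed by -0.78 (adjusted p = 4.13e-06).

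In the other lines the LAMA3 and LAMB3 chains did not move together. In HCC827, LAMB3 was at 108.5 and 94.9 FPKM in ZNF263 cells and 157 and 143 FPKM in control cells, a change of -0.56 ± 0.083 (adjusted p = 0.000695). LAMA3 was not called in HCC827, at 24.0 and 24.4 FPKM in ZNF263 cells and 21.2 and 23.8 FPKM in control cells, with a 95% interval of the change from -0.051 to 0.26. The 2 LAMA3 groups did not overlap there, although they lay close together.

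In PC9, LAMA3 was at 2.40 and 2.62 FPKM in ZNF263 cells and 4.81 and 4.71 FPKM in control cells, a fall with a log2 change of -0.71 ± 0.071 (adjusted p = 2.99e-05). LAMB3 rose there, at 5.90 and 5.38 FPKM in ZNF263 PC9 cells and 4.24 and 3.48 FPKM in control PC9 cells, a change of 0.45 ± 0.083 (adjusted p = 0.00353). Without control replicate 2 this LAMB3 change was 0.34 (adjusted p = 0.0607), and with PC9 fitted alone its adjusted p was 0.11.

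The change of LAMB3 in HCC827 was below that in PC9 by 1.01 (adjusted p = 0.000207), and the change of LAMA3 in HCC827 was above that in PC9 by 0.82 (adjusted p = 0.000336). The change of LAMB3 in H1975 differed from that in PC9 by -1.71 (adjusted p = 1.25e-07) and from that in HCC827 by -0.70 (adjusted p = 0.000271).

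**Figure D2:**
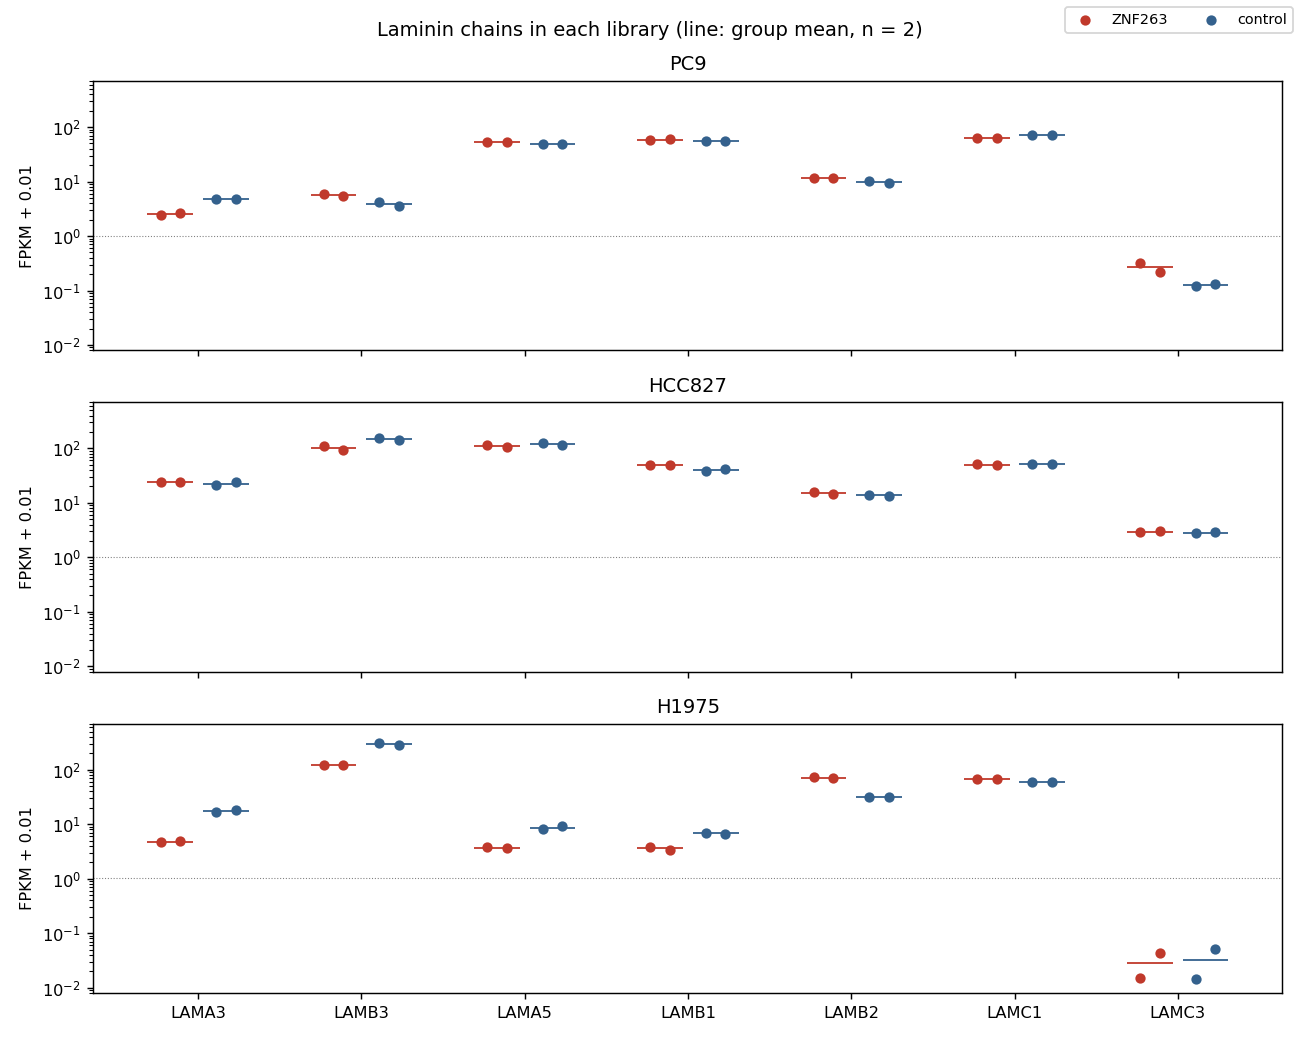
Level of 7 tested laminin chains in each library of PC9, HCC827 and H1975, as FPKM + 0.01 on a log axis; red points are ZNF263 libraries, blue points control libraries, short lines group means (n = 2) and the dotted line 1 FPKM. In H1975 the LAMB3 libraries sit at 124 and 123 FPKM with ZNF263 and at 304 and 290.0 FPKM in the controls.

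Integrin α6β4, the hemidesmosome receptor of laminin-332, fell in H1975 in both of its chains, while in PC9 they moved apart. ITGB4, the beta 4 chain, which pairs with alpha 6 alone (chromosome 17, 75721328 to 75757818, plus strand), was at 16.8 and 16.2 FPKM in ZNF263 H1975 cells and 82.0 and 84.3 FPKM in control H1975 cells. The change was -2.27 ± 0.076 (adjusted p = 8.6e-11). ITGA6, the alpha 6 chain (chromosome 2, 172427354 to 172506282, plus strand), was at 23.4 and 22.6 FPKM in ZNF263 H1975 cells and 66.0 and 65.9 FPKM in control H1975 cells, a change of -1.48 ± 0.062 (adjusted p = 4.98e-10).

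ITGB4 rose in the other 2 lines. In PC9 it was at 24.3 and 23.0 FPKM in ZNF263 cells and 10.3 and 11.4 FPKM in control cells, a change of 1.06 ± 0.076 (adjusted p = 2.26e-06) and the largest of the 23 genes in that line. In HCC827 it was at 7.77 and 8.18 FPKM in ZNF263 cells and 6.61 and 5.51 FPKM in control cells, a change of 0.35 ± 0.076 (adjusted p = 0.00725). The HCC827 call was lost without ZNF263 replicate 2 (adjusted p = 0.0508) and with the line fitted alone (adjusted p = 0.12). Both ZNF263 libraries lay above both control libraries in PC9 and HCC827 and below them in H1975. The change of ITGB4 in H1975 differed from that in PC9 by -3.32 (adjusted p = 3.97e-10) and from that in HCC827 by -2.62 (adjusted p = 1.9e-09), and HCC827 differed from PC9 by -0.71 (adjusted p = 0.0015).

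ITGA6 did not follow ITGB4 in PC9, at 26.8 and 28.0 FPKM in ZNF263 cells and 33.7 and 35.2 FPKM in control cells. This was a change of -0.32 ± 0.062 on the log2 scale (adjusted p = 0.00487), which did not pass without ZNF263 replicate 1 (adjusted p = 0.0516), without control replicate 2 (adjusted p = 0.0677) or with PC9 fitted alone (adjusted p = 0.0529). In HCC827 ITGA6 was at 49.2 and 51.1 FPKM in ZNF263 cells and 53.5 and 60.8 FPKM in control cells, a change of -0.18 ± 0.062 that was not called (adjusted p = 0.0557). It was called after median-of-ratios scaling (adjusted p = 0.0201). The ITGA6 groups did not overlap in any of the 3 lines. In HCC827 the groups of LAMA5 and LAMC3, also not called, did not overlap either.

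Of the other alpha chains that bind laminin, ITGA3, which pairs with beta 1, was the most abundant alpha chain of PC9, HCC827 and H1975. It fell in H1975, at 187 and 179 FPKM in ZNF263 cells and 335 and 334 FPKM in control cells, a change of -0.87 ± 0.057 (adjusted p = 3.4e-08). In HCC827 it was at 263.5 and 253 FPKM in ZNF263 cells and 306 and 279 FPKM in control cells, a change of -0.18 ± 0.057 with an adjusted p of 0.0456 that stayed under the threshold in 6 of 19 alternative analyses and reached 0.255 in the fit to HCC827 alone. Without HCC827 control replicate 1 this change was -0.11 (adjusted p = 0.208). In PC9 it was at 62.4 and 57.8 FPKM in ZNF263 cells and 64.3 and 64.5 FPKM in control cells and was not called (95% interval -0.22 to 0.025). The change in H1975 differed from that in PC9 by -0.77 (adjusted p = 5.39e-06) and from that in HCC827 by -0.69 (adjusted p = 1.31e-05).

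Partners of this adhesion were read from a list of 11 genes of laminin-332 and the hemidesmosome, 9 of them tested and 4 of these the chains above. In H1975, 2 of the 9 rose and 6 fell (22.2% and 66.7%, against 32.1% and 32.1% of all genes). COL17A1, the transmembrane collagen of hemidesmosomes, was at 19.3 ± 0.222 FPKM in ZNF263 H1975 cells and 131 ± 5.02 FPKM in control H1975 cells (SD, n = 2), a change of -2.70 ± 0.060 (adjusted p = 5.63e-12). ITGB4 and LAMA3, given above, had the next largest changes of the list. The tetraspanin CD151, which binds α3β1 and α6β4, went the other way with a change of 0.26 (adjusted p = 0.00187), as did the linker plectin, PLEC (0.20, adjusted p = 0.0197), whose call was lost less its neighbours (0.13, adjusted p = 0.111). The median change of the 9 genes was -1.25 in H1975, -0.012 in PC9 and -0.011 in HCC827, beside 0.0025, 0 and 0.045 for all genes tested. In PC9 2 of the 9 rose and 2 fell (22.2% each, against 7.21% and 4.12% of all genes), all of them chains named above. In HCC827 1 rose and 2 fell (11.1% and 22.2%, against 13.0% and 6.44% of all genes), with PLEC at -0.42 ± 0.066 (adjusted p = 0.00103) beside LAMB3, and COL17A1 was not called there (-0.013, adjusted p = 0.913).

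Basal squamous cells carry many hemidesmosomes, and the summed level of 4 of their markers (KRT5, KRT14, TP63 and DSG3) differed beside these genes. It was 1.72 to 2.03 FPKM in ZNF263 H1975 cells and 15.9 to 16.7 FPKM in control H1975 cells, and 1 of the 4, TP63, was at 1 FPKM or more. KRT5 was at most 0.63 FPKM and DSG3 at most 0.0467 FPKM in any H1975 library. TP63 was at 14.5 and 15.6 FPKM in ZNF263 PC9 cells and 10.8 and 9.98 FPKM in control PC9 cells, and at 3.60 and 2.56 FPKM in ZNF263 HCC827 cells and 1.95 and 1.72 FPKM in control HCC827 cells. In H1975 TP63 was lower with ZNF263, at 1.79 and 1.35 FPKM in ZNF263 cells and 15.3 and 15.9 FPKM in control cells. The summed level of the 8 epithelial markers was 1500 to 1530 FPKM in ZNF263 H1975 cells and 2490 to 2540 FPKM in control H1975 cells. KRT8, the largest term of the sum with ZNF263, went the other way there, at 702 and 683 FPKM in ZNF263 cells and 583.5 and 586 FPKM in control cells. All the other epithelial markers were lower with ZNF263 in H1975. EPCAM was at 31.2 and 32.2 FPKM in ZNF263 cells and 220 and 229.5 FPKM in control cells. CDH1 was at 12.5 and 14.4 FPKM against 64.0 and 69.1 FPKM, and KRT18 at 488.5 and 477 FPKM against 564 and 564.5 FPKM. The sum was 3440 to 3620 FPKM in ZNF263 PC9 cells and 2260 to 2280 FPKM in control PC9 cells, nearly all of it KRT8 and KRT18, and 2720 to 2850 FPKM in ZNF263 HCC827 cells and 2720 to 3040 FPKM in control HCC827 cells. Their part in the changes was not tested, and in bulk RNA fewer cells of a kind and less RNA per cell cannot be told apart.

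The laminin-511 chains moved in different directions in H1975, where LAMA5 and LAMB1 fell and LAMC1 rose. LAMA5, the alpha 5 chain of most adult basement membranes, was at 3.73 and 3.63 FPKM in ZNF263 H1975 cells and 8.07 and 9.23 FPKM in control H1975 cells, a change of -1.04 ± 0.064 on the log2 scale (adjusted p = 1.82e-08). LAMB1, the beta 1 chain, was at 3.82 and 3.40 FPKM in ZNF263 H1975 cells and 6.83 and 6.69 FPKM in control H1975 cells, a change of -0.75 ± 0.062 (adjusted p = 2.86e-07). LAMC1, the gamma 1 chain of most laminins, rose slightly, at 67.9 and 68.3 FPKM in ZNF263 H1975 cells and 60.4 and 60.04 FPKM in control H1975 cells (0.18 ± 0.045, adjusted p = 0.0044). The neighbours of LAMC1 had a median change of -0.29, and less that median its change was 0.47 (adjusted p = 1.84e-06).

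LAMB2, the beta 2 chain that takes the place of beta 1 in laminin-521, rose in H1975 (chromosome 3, 49121114 to 49133118, minus strand). It was at 73.1 and 69.7 FPKM in ZNF263 H1975 cells and 32.2 and 31.5 FPKM in control H1975 cells, a change of 1.14 ± 0.058 (adjusted p = 3.18e-09) or 2.24-fold. In PC9 LAMB2 was at 11.4 and 11.6 FPKM in ZNF263 cells and 10.04 and 9.51 FPKM in control cells, a change of 0.22 ± 0.058 (adjusted p = 0.032), a call kept in 13 of 19 alternatives. Leaving out any of the 4 PC9 libraries ended it (adjusted p from 0.0743 to 0.229). In HCC827 it was at 16.1 and 14.8 FPKM in ZNF263 cells and 13.98 and 13.6 FPKM in control cells and was not called (0.15, adjusted p = 0.0856). ZNF263 libraries were the higher ones in all 3 lines, an order of 2 against 2 libraries whose share over all genes was not counted. The rise in H1975 was larger than the change in PC9 by 0.93 (adjusted p = 1.24e-06) and than that in HCC827 by 0.99 (adjusted p = 6.87e-07).

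In PC9, LAMA5 was at 52.9 and 52.7 FPKM in ZNF263 cells and 49.75 and 48.6 FPKM in control cells, and LAMB1 was at 57.8 and 60.1 FPKM in ZNF263 cells and 56.0 and 55.9 FPKM in control cells. Neither was called (95% intervals -0.038 to 0.24 and -0.061 to 0.21). LAMC1 was at 62.0 and 63.6 FPKM in ZNF263 PC9 cells and 71.8 and 72.8 FPKM in control PC9 cells, a change of -0.20 ± 0.045 on the log2 scale (adjusted p = 0.0125). It was lost without ZNF263 replicate 1 (adjusted p = 0.0864), without either control replicate (adjusted p = 0.0663 and 0.108) and with PC9 fitted alone (0.054).

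In HCC827, LAMB1 was at 49.0 and 48.8 FPKM in ZNF263 cells and 38.0 and 41.9 FPKM in control cells, a rise of 0.29 ± 0.062 (adjusted p = 0.00665) that was lost only with the line fitted alone (adjusted p = 0.0835). LAMA5 was at 116 and 108 FPKM in ZNF263 HCC827 cells and 123.5 and 116 FPKM in control HCC827 cells and was not called (-0.096, adjusted p = 0.327). LAMC1 was at 50.8 and 48.9 FPKM in ZNF263 HCC827 cells and 51.2 and 51.9 FPKM in control HCC827 cells and was not called (-0.047, adjusted p = 0.517). The exons of LAMA5 overlap those of ADRM1, and the exons of LAMB1 those of DLD, on the opposite strand in GENCODE 29. Strand use in counting is not given in the sources used here, so reads of these pairs may not be told apart. LAMC3, the gamma 3 chain, was called in no line: it ranged up to 2.98 FPKM in HCC827, 0.306 FPKM in PC9 and 0.0402 FPKM in H1975.

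FPKM is scaled by length, so the chains of 1 class can be set against each other within a library, and these shares are given as a description. The transcript length used for each gene is not given in the sources used here. A chain read mostly from a shorter transcript than that would have its share understated, and LAMA3 has the start inside its span given above. Among the beta chains LAMB3 led in both groups, at 61.8% and 62.7% in ZNF263 H1975 libraries and 88.6% and 88.3% in control H1975 libraries. LAMB2 made 36.3% and 35.5% in ZNF263 libraries and 9.38% and 9.59% in control libraries.

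Each line had its own laminin make-up. In PC9 the LAMA5 and LAMB1 chains led the alpha and beta chains in every library, at 91.0% to 95.5% and 76.9% to 81.1%. HCC827 joined LAMA5 (81.0% to 84.9% of the alpha chains) with LAMB3. LAMB3 made 62.5% and 59.8% of the beta chains in ZNF263 HCC827 libraries and 75.2% and 72.0% in control HCC827 libraries. H1975 was the only one of the 3 lines in which LAMA3 led the alpha chains, at 52.7% and 55.8% in ZNF263 libraries and 67.0% and 65.6% in control libraries.

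**Figure D3:**
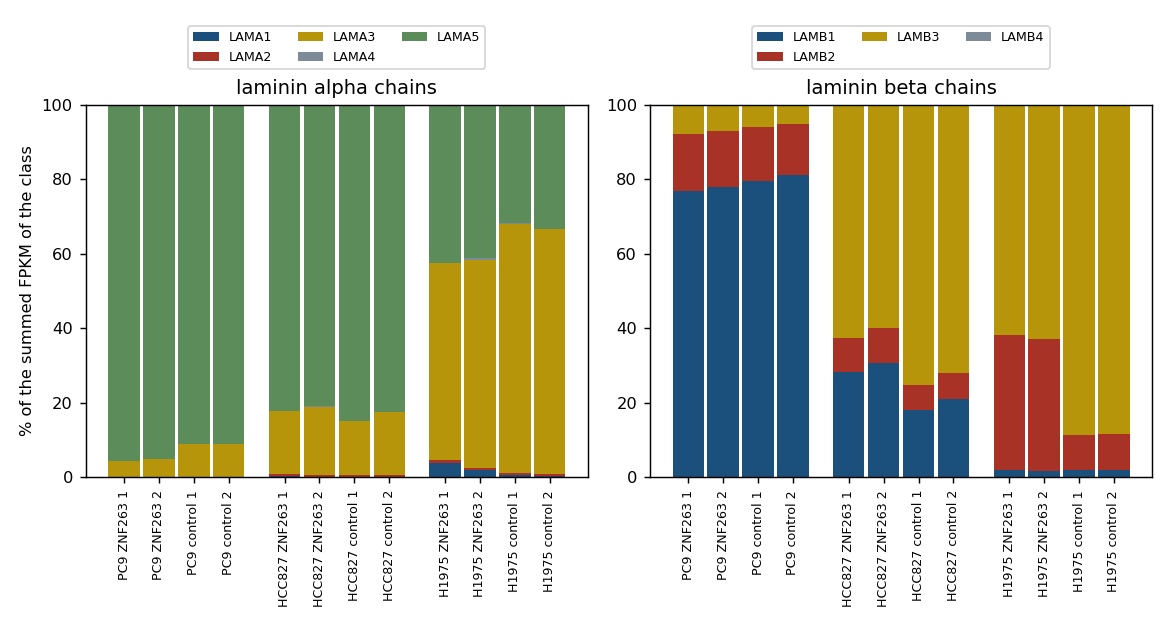
Share of each chain in the summed FPKM of the laminin alpha chains (left) and beta chains (right; vertical axis, percent) in each of the 12 libraries, with the ZNF263 libraries left of the control libraries of the same line. In H1975 LAMB2 fills 36.3% and 35.5% of the beta bar with ZNF263 and 9.38% and 9.59% in the controls.

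Among the receptors of collagen, which pair with beta 1, ITGA2 fell and ITGA11 rose in H1975. ITGA2, the main epithelial collagen receptor chain, was at 30.5 and 30.1 FPKM in ZNF263 H1975 cells and 89.2 and 87.1 FPKM in control H1975 cells, a change of -1.51 ± 0.090 (adjusted p = 1.4e-08). ITGA11, a fibrillar collagen receptor chain best known from fibroblasts (chromosome 15, 68296533 to 68432162, minus strand), was at 3.54 and 3.12 FPKM in ZNF263 H1975 cells and 0.343 and 0.270 FPKM in control H1975 cells. This was a 10.9-fold higher mean level and a log2 change of 1.73 ± 0.070 (adjusted p = 4.07e-10). With a pseudocount of 0.1 in place of 1 the same change was 3.08. ITGA11 stood on at least 1313 and 1164 reads in the ZNF263 libraries and at least 129 and 94 reads in the control libraries. Its level with ZNF263 was still well below that of ITGA2. ITGA11 reached the 1 FPKM of the filter in no other group, so it was tested only through the group in which it was high.

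Elsewhere ITGA11 was a trace. It was at 0.170 and 0.0901 FPKM in ZNF263 PC9 cells and 0.152 and 0.188 FPKM in control PC9 cells, and in HCC827 it was listed at 0 in 3 of the 4 libraries, both ZNF263 libraries among them, and at 0.00508 FPKM, at least 1 read, in control replicate 1. ITGA2 was at 4.55 and 5.61 FPKM in ZNF263 PC9 cells and 6.51 and 6.58 FPKM in control PC9 cells (-0.32, adjusted p = 0.0399), a call kept in 7 of 19 alternatives. It ended without ZNF263 replicate 1 (-0.19, adjusted p = 0.327) and without either control replicate (adjusted p = 0.152 and 0.19). In HCC827 it was at 16.5 and 15.9 FPKM in ZNF263 cells and 15.95 and 19.4 FPKM in control cells, groups that overlapped.

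ITGA1, a further collagen receptor chain, was called in no line, with means of 2.12 to 4.40 FPKM, and its exons overlap PELO on the same strand. Its largest change was in HCC827 (0.28, 95% interval 0.069 to 0.49, adjusted p = 0.0622). ITGA10, the collagen receptor chain of cartilage, was at 0.819 and 0.596 FPKM in ZNF263 H1975 cells and 0.505 and 0.377 FPKM in control H1975 cells (0.24, adjusted p = 0.0181). Less the median change of its neighbours on the chromosome, 0.24, it was 0.0046 (adjusted p = 0.967), and the call was also lost without ZNF263 replicate 1 (0.15, adjusted p = 0.183) and without control replicate 2 (0.18, adjusted p = 0.132).

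The summed level of 7 fibroblast markers was 176 to 180 FPKM in ZNF263 H1975 cells and 30.9 to 34.2 FPKM in control H1975 cells, with 3 of the 7 at 1 FPKM or more in each group, COL1A1, COL1A2 and PDGFRB in ZNF263 cells and COL1A1, COL1A2 and LUM in control cells. Nearly all of it in ZNF263 cells was COL1A2, at 169 and 164 FPKM, against 14.01 and 15.1 FPKM in control cells. COL1A1 was at 9.52 and 9.05 FPKM in ZNF263 cells and 14.8 and 16.9 FPKM in control cells. PDGFRB was higher with ZNF263, at 1.36 and 1.88 FPKM in ZNF263 cells and 0.0404 and 0.197 FPKM in control cells. LUM was lower, at 0.0993 and 0.164 FPKM in ZNF263 cells and 1.89 and 1.80 FPKM in control cells. DCN, a defining fibroblast gene, was at most 0.00892 FPKM in any H1975 library, and PDGFRA was listed at 0 in both ZNF263 H1975 libraries. The part of these markers in the ITGA11 result was not tested.

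ITGB1, the common partner of the laminin, collagen and fibronectin receptor chains, rose in H1975 while ITGA2, ITGA3 and ITGA6 fell. It was at 318 and 322 FPKM in ZNF263 H1975 cells and 201 and 196 FPKM in control H1975 cells, a change of 0.69 ± 0.077 (adjusted p = 5.33e-06). Genes around ITGB1 rose by a median of 0.27, and less that median the change was 0.42 (adjusted p = 0.000511). In PC9 it was at 275 and 313 FPKM in ZNF263 cells and 325 and 329 FPKM in control cells and was not called (95% interval -0.32 to 0.012). In HCC827 it was at 189.5 and 202 FPKM in ZNF263 cells and 178 and 211 FPKM in control cells, groups that overlapped (95% interval -0.15 to 0.18). Its change in H1975 exceeded that in PC9 by 0.84 (adjusted p = 3.42e-05) and that in HCC827 by 0.67 (adjusted p = 0.000216).

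The shares of the beta chains in H1975 differed between the groups. ITGB1 was 80.2% and 80.8% of the summed beta chain FPKM in ZNF263 H1975 libraries, against 58.7% and 57.8% in control H1975 libraries. ITGB4 was 4.23% and 4.05% in ZNF263 libraries and 23.9% and 24.9% in control libraries. In PC9 ITGB4 was 7.08% and 6.06% in ZNF263 libraries and 2.71% and 2.96% in control libraries.

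**Figure D4:**
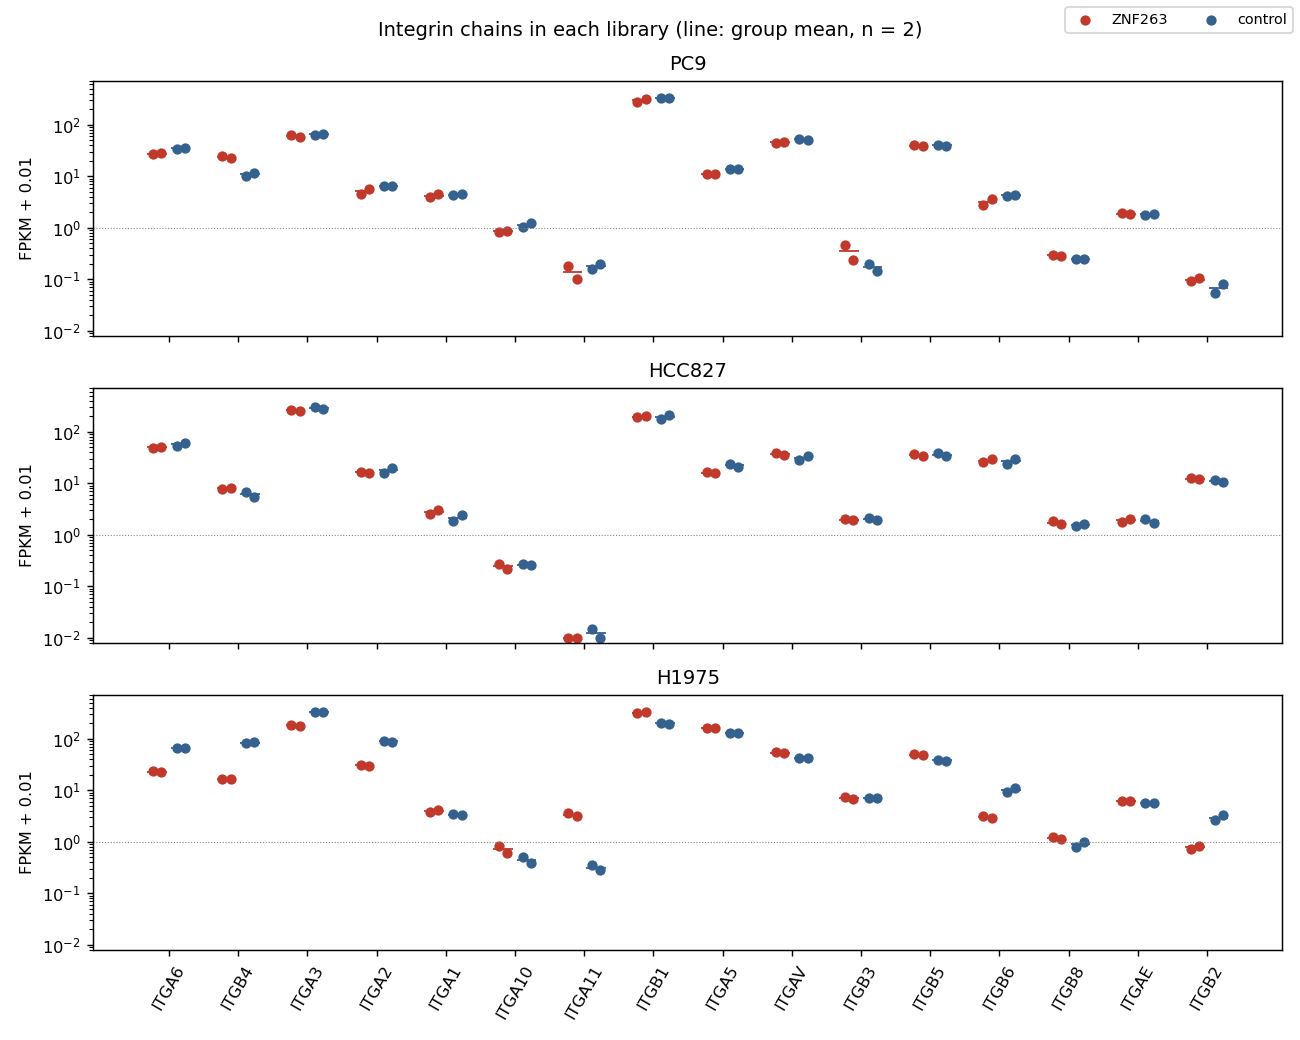
Level of the 16 tested integrin chains in each library of PC9, HCC827 and H1975, as FPKM + 0.01 on a log axis; red points are ZNF263 libraries, blue points control libraries, short lines group means (n = 2) and the dotted line 1 FPKM. In H1975 ITGA11 stands at 3.54 and 3.12 FPKM with ZNF263 and at 0.343 and 0.270 FPKM in the controls.

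ITGA5, which with beta 1 forms the fibronectin receptor, fell in PC9 and HCC827 and rose in H1975. It was at 11.03 and 11.1 FPKM in ZNF263 PC9 cells and 13.7 and 13.5 FPKM in control PC9 cells (-0.27 ± 0.060, adjusted p = 0.0102), a call lost without ZNF263 replicate 1 (adjusted p = 0.0675), without either control replicate (0.0773 and 0.0668) and with PC9 fitted alone (0.0525). In HCC827 it was at 16.3 and 15.5 FPKM in ZNF263 cells and 23.7 and 20.9 FPKM in control cells, and its change of -0.46 held in all 19 alternatives, with adjusted p up to 0.0383. In H1975 it was far more abundant, at 163 and 160.2 FPKM in ZNF263 cells and 129 and 126 FPKM in control cells (0.34 ± 0.060, adjusted p = 0.000253). The neighbours of ITGA5 in H1975 had a median change of -0.51, and less that median the change was 0.85 (adjusted p = 7.84e-08). The change in H1975 exceeded that in HCC827 by 0.80 (adjusted p = 5.25e-06) and that in PC9 by 0.61 (adjusted p = 5.48e-05).

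The αV integrins bind vitronectin, fibronectin and the latent form of the cytokine TGF-β. In H1975, ITGAV, their alpha chain, rose by 0.36 on the log2 scale (adjusted p = 0.000851), to 54.2 and 53.4 FPKM in ZNF263 cells, against 41.6 and 41.6 FPKM in control cells. ITGB5, a broadly expressed partner, rose by 0.36 as well (adjusted p = 0.000393), with 49.4 and 48.4 FPKM in ZNF263 cells and 39.2 and 36.4 FPKM in control cells. ITGB6, the epithelial partner that activates latent TGF-β, fell, at 3.13 and 2.91 FPKM in ZNF263 H1975 cells and 9.43 and 10.9 FPKM in control H1975 cells (-1.47 ± 0.11, adjusted p = 1.13e-07). Partners of the same alpha chain therefore moved in opposite directions in H1975.

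ITGB8, another activator of latent TGF-β, was at 1.21 and 1.15 FPKM in ZNF263 H1975 cells and 0.797 and 0.962 FPKM in control H1975 cells, a rise of 0.22 (adjusted p = 0.0205). It was lost without control replicate 1 (0.15, adjusted p = 0.154) and without ZNF263 replicate 1 (0.19, adjusted p = 0.0943), and was 0.39 with a pseudocount of 0.1. ITGB3, the vitronectin receptor chain of platelets and endothelium, was called in no line. Its H1975 libraries overlapped, at 7.26 and 6.81 FPKM with ZNF263 and 7.20 and 7.11 FPKM in the controls, with a 95% interval of -0.21 to 0.17.

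In HCC827, ITGAV was at 38.4 and 35.5 FPKM in ZNF263 cells and 28.5 and 34.3 FPKM in control cells (0.23, adjusted p = 0.0454), a call kept in 1 of 19 alternatives. It was 0.10 without control replicate 1 (adjusted p = 0.285) and 0.18 without ZNF263 replicate 1 (adjusted p = 0.27). In HCC827 ITGB6 was at 25.6 and 28.9 FPKM in ZNF263 cells and 23.9 and 29.1 FPKM in control cells, groups that overlapped (95% interval -0.20 to 0.28). In PC9 it was at 2.75 and 3.55 FPKM in ZNF263 cells and 4.20 and 4.24 FPKM in control cells and was not called (-0.34, adjusted p = 0.069). The change of ITGB6 in H1975 differed from that in HCC827 by -1.52 (adjusted p = 4.3e-06) and from that in PC9 by -1.14 (adjusted p = 5.35e-05).

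Of the integrins of leukocytes, only ITGB2 and ITGAE were tested. ITGB2, the beta chain of the leukocyte integrins, was at 0.713 and 0.820 FPKM in ZNF263 H1975 cells and 2.60 and 3.29 FPKM in control H1975 cells, a change of -1.15 ± 0.089 (adjusted p = 1.59e-07), or -1.81 with a pseudocount of 0.1. It was not called in HCC827, where it was at 12.4 and 12.1 FPKM in ZNF263 cells and 11.8 and 10.5 FPKM in control cells, nor in PC9, where it was at 0.0820 and 0.0951 FPKM in ZNF263 cells and 0.0455 and 0.0720 FPKM in control cells. Its alpha partners ITGAL, ITGAM, ITGAX and ITGAD were below 0.4 FPKM in every library. The summed level of 8 leukocyte markers, ITGB2 among them, was 33.9 to 34.7 FPKM in ZNF263 H1975 cells and 89.2 to 89.5 FPKM in control H1975 cells, with 3 of 8 and 4 of 8 at 1 FPKM or more. Most of it in control cells was LCP1, at 10.5 and 12.3 FPKM in ZNF263 cells and 81.7 and 78.4 FPKM in control cells. CD14, a monocyte gene, went the other way and was most of the sum with ZNF263, at 21.7 and 18.7 FPKM in ZNF263 cells and 2.22 and 3.96 FPKM in control cells. The defining gene PTPRC was at most 0.00465 FPKM in any H1975 library, and the part of the other markers in the ITGB2 result was not tested. ITGAE, the E-cadherin receptor chain of mucosal lymphocytes, was called in no line, with means of 1.81 to 6.16 FPKM, and its exons overlap HASPIN on the opposite strand.

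Neighbouring genes on a chromosome can move together, so each change was also set against the median change of up to 20 tested genes on either side. The adjusted p of a change less its neighbours, here and above, uses the SE of the gene's own change. It takes the median as known and leaves out the spread of the neighbours, so it is too small. Of the 19 genes called in H1975, 18 were still called less their neighbours. Changes that moved by more than 1.5 times were those of LAMB3, ITGB1, ITGA5, LAMC1 and ITGA10, given above. ITGB4 was at -2.00 and ITGA11 at 1.93, which kept them as the genes with the largest fall and the largest rise among the 23.

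**Figure D5:**
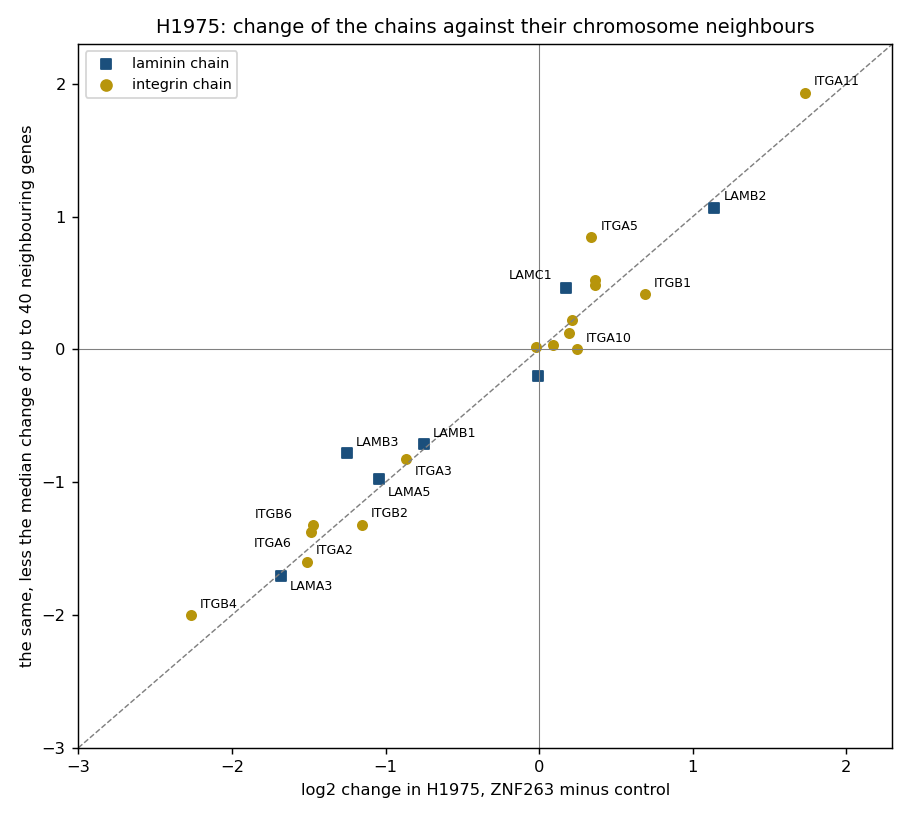
Log2 change of 7 laminin (squares) and 16 integrin (circles) chains in H1975, ZNF263 minus control, on the horizontal axis, against the same change less the median change of up to 40 neighbouring genes on the vertical axis; the dashed line marks equal values. ITGA5 and LAMC1 lie above the line, LAMB3 lies above it at -0.78, and ITGB1 lies below it at 0.42.

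Other genes of cell adhesion were read from 5 further lists. Beside their counts stand those of all genes, 32.1% higher and 32.1% lower in H1975, 13.0% and 6.44% in HCC827, and 7.21% and 4.12% in PC9, with median changes of 0.0025, 0.045 and 0 in the same order of lines. Of 14 tested partners of laminins in the basement membrane, 6 rose (42.9%) and none fell in PC9, 3 rose (21.4%) and 1 fell (7.14%) in HCC827, and 5 rose (35.7%) and 3 fell (21.4%) in H1975. In HCC827 and H1975 these shares were within a few genes of those of all genes. In PC9 these were led by the type IV collagen chains COL4A3 (1.06, adjusted p = 7.95e-06) and COL4A4 (0.69, adjusted p = 2.34e-05), and by nidogen 1, NID1, which joins laminin to collagen IV (0.54, adjusted p = 0.00308). In HCC827 they were NID1 (0.53), COL4A5 (0.33; 0.23 less its neighbours, adjusted p = 0.122) and COL4A2 (-0.30). In H1975 HSPG2, the proteoglycan perlecan, was at 26.4 ± 0.245 FPKM in ZNF263 cells and 3.76 ± 0.133 FPKM in control cells (SD, n = 2), a change of 2.53 ± 0.084 (adjusted p = 7.8e-11). The matricellular protein SPARC rose by 2.40 and NTN4, a netrin that binds laminin, changed by -1.73. The list's median change was -0.0024 in H1975, 0.034 in HCC827 and 0.18 in PC9.

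Of 24 tested ligands of integrins other than laminins, 15 rose (62.5%) and 6 fell in H1975, 7 rose (29.2%) and 1 fell in HCC827, and of 26 in PC9, 11 rose (42.3%) and 1 fell. In H1975 the largest changes were rises of the collagen genes COL1A2 (3.43), COL5A1 (2.74) and COL6A2 (2.41). In PC9 they were NPNT, the α8β1 ligand nephronectin (2.19 ± 0.083, adjusted p = 8.38e-09), CDH1, E-cadherin, the ligand of αE (0.99), and VTN, vitronectin (0.75). In HCC827 they were COL3A1 (1.15 ± 0.074, adjusted p = 2.84e-06), COL6A2 (0.89) and COL6A1 (0.59). COL3A1 reached 1 FPKM only in ZNF263 HCC827 cells and so was tested only through that group. ITGA8, the alpha chain that binds NPNT, was at most 0.0135 FPKM in PC9. The list's median change was 0.44 in H1975, 0.21 in PC9 and 0.060 in HCC827.

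Inside the cell, of 29 tested focal adhesion genes, 14 rose (48.3%) and 11 fell (37.9%) in H1975, 3 rose (10.3%) and 7 fell (24.1%) in HCC827, and 4 rose (13.8%) and none fell in PC9. Of all genes 32.1% rose and 32.1% fell in H1975, 13.0% and 6.44% in HCC827, and 7.21% and 4.12% in PC9. H1975 was led by TNS4, an epithelial tensin (-2.00 ± 0.11, adjusted p = 4.95e-09), the adaptor NEDD9 (1.5) and talin 2, TLN2 (1.36). HCC827 was led by filamin C, FLNC (-0.54), zyxin, ZYX (-0.39), and the kinase PTK2B (0.33). PC9 was led by tensin 1, TNS1 (0.85), parvin alpha, PARVA (0.45), and the kinase SRC (0.25). The list's median change was 0.14 in H1975, -0.019 in HCC827 and 0.045 in PC9, beside 0.0025, 0.045 and 0 for all genes.

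Of 17 tested tetraspanins and other membrane partners of integrins, 4 rose (23.5%) and 11 fell (64.7%) in H1975, with EPCAM (-2.79), the urokinase receptor PLAUR (-1.31) and the tetraspanin CD63 (-0.94) first. CD63 was at -0.54 less its neighbours. In PC9 5 rose and 3 fell, led by the tetraspanin CD9 (0.84), the syndecan SDC4 (-0.57) and EMP2 (0.54). In HCC827 4 rose and 4 fell, led by PLAUR (-0.85), SDC1 (0.60) and EMP2 (0.53). The list's median change was -0.44 in H1975, 0.012 in PC9 and -0.033 in HCC827. Of 14 tested inhibitors and trafficking factors of integrins, none rose and 8 fell (57.1%) in H1975, 1 rose in HCC827 (RAB11A, a recycling GTPase, 0.18, adjusted p = 0.049, and 0.12 less its neighbours, adjusted p = 0.188), and none was called in PC9. In H1975 RAB25, an epithelial recycling GTPase that binds the tail of beta 1, was at 3.51 ± 0.224 FPKM in ZNF263 cells and 25.6 ± 1.29 FPKM in control cells (SD, n = 2), a change of -2.56 ± 0.071 (adjusted p = 2.11e-11). The other 2 largest, the beta 1 tail inhibitor ITGB1BP1 (-0.48) and the endocytic adaptor NUMB (-0.47), were at -0.024 (adjusted p = 0.769) and -0.13 (adjusted p = 0.0859) less their neighbours. The list's median change was -0.25 in H1975, 0.020 in HCC827 and 0.047 in PC9.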

How the data were processed

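RNA of 12 libraries (2 per group, 3 lines, ZNF263 or control vector) was extracted with TRIZOL and made into libraries with a SMARTer mRNA-seq kit, per the labels' protocols. The authors deposited 1 table of FPKM values per gene, with GRCh38.p13 as the build per the submitters' processing notes; no source used here names the aligner, counter, annotation or strand setting. Of 20030 entries, 27 whose symbols had become dates were left out, and 0 columns were unmapped. FPKM values were turned into log2(FPKM + 1), which understates changes of low genes, and fitted with limma 3.58.1 (R 4.3.3): 1 mean per group over all 12 libraries, a trended variance prior, 2-sided tests, Benjamini-Hochberg adjustment over all genes tested and a threshold of 0.05. Nothing in the labels says that replicates came from separate cultures, so p-values reflect only how far these libraries differ, which can be technical.

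For 99.1% to 99.6% of genes the FPKM values were whole multiples of a read, within 0.002 of a read (3.25% to 4.15% of shuffled genes), and the read numbers quoted are the smallest that fit. Positions and exon overlaps came from GENCODE 29 on GRCh38; promoters were matched by symbol in the RefSeq table of GRCh38.p14. The fit was tried on simulated data in which genes varied independently and only a small set changed, in H1975. That setting differs from these data, so nothing here rests on it. The genes and lists were chosen with earlier results of these data known, so no test of a list was made. The rule found 38 genes, of which 1 is not reported here; it was left out of all member and list counts, and was kept in the fit over all genes. Every tested gene of the other 37 is named. Values in every library are given for those called in 1 line or more with a log2 change of 0.5 or more in size and for laminin-332 and laminin-511 chains and their receptors; from each list, the called genes with the 3 largest changes per line are named. Values per library of other genes were chosen after they were seen. The 19 alternatives were a pseudocount of 0.1, no filter, median-of-ratios scaling, quantile normalisation, a replicate block, each line alone, each of 12 libraries left out, and changes less those of neighbours (20 on each side).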

Additional observations from a re-analysis of the deposited data

Results flagged for a closer look

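The change with ZNF263 differed between PC9, HCC827 and H1975 for 18 of the 23 tested genes by limma's F test of the difference, which called 60.4% of all genes tested; the values in parentheses are its adjusted p. Among the laminin chains these were LAMA3 (4.5e-08), LAMB3 (2.35e-07), LAMA5 (5.46e-07), LAMB2 (6.13e-07), LAMB1 (1.11e-06) and LAMC1 (0.000845). Among the chains of laminin and collagen receptors they were ITGB4 (3.47e-10), ITGA6 (9.18e-08), ITGA11 (1.32e-08), ITGA2 (1.76e-06), ITGA3 (4.8e-06), ITGB1 (4.66e-05) and ITGA10 (0.0143). Among the fibronectin, αV and leukocyte integrin chains they were ITGB2 (2.7e-06), ITGB6 (7.14e-06), ITGA5 (9.06e-06), ITGAV (0.00127) and ITGB5 (0.00589). For some of those whose differences between lines are not given above, the change in H1975 differed from that in PC9 and in HCC827 by 1.78 and 1.73 for ITGA11, by -1.16 and -1.30 for ITGA6, by -1.19 and -1.40 for ITGA2, by -1.20 and -1.28 for ITGB2, by -1.14 and -0.95 for LAMA5 and by -0.83 and -1.04 for LAMB1. With 2 libraries per group no library could be set against the rest of its group. ITGA11 was in the F test only through its level in ZNF263 H1975 cells.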

How the results depend on the processing

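Over the 19 alternatives, 17 of 19 calls in H1975 were kept in every one (not ITGA10 and ITGB8), 2 of 8 in PC9 (ITGB4 and LAMA3) and 2 of 6 in HCC827 (ITGA5 and LAMB3). Of all values of single genes, 1224 kept their side of the threshold, 71 lost it, 16 gained it and no called value changed direction. With each line fitted alone, PC9 had 407 genes called (287 higher, 120 lower; 1430, 910 and 520 in the joint fit) and 2 of the 23 (1 higher, 1 lower), and HCC827 had 634 (430 higher, 204 lower; 2386, 1596 and 790 in the joint fit) and 2 of the 23 (0 higher, 2 lower); here fewer libraries estimate the spread. With a pseudocount of 0.1, 5 of the 23 rose in PC9 (ITGB3 and LAMC3 added). The median change of the 23 genes was 0.017 in HCC827, but -0.050 less neighbours, and in PC9 it was -0.051, but -0.084 after quantile normalisation and -0.014 less neighbours; the cause was not tested.

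Leaving out 1 library at a time gave 591 to 1900 genes called in PC9 (426 to 1101 higher, 165 to 799 lower) and 2 to 10 of the 23 (1 to 3 higher, 1 to 7 lower): 591 genes and 2 of the 23 without control replicate 2, 763 and 4 without control replicate 1, 726 and 3 without ZNF263 replicate 1, and 854 and 8 without ZNF263 replicate 2, with a median of -0.070 to 0.00038, the highest without ZNF263 replicate 2. In HCC827 it gave 1082 to 3109 genes (697 to 2007 higher, 385 to 1102 lower), the lowest without ZNF263 replicate 1, and 3 to 7 of the 23 (1 to 4 higher, 2 to 3 lower), the lowest without ZNF263 replicate 2, with a median of -0.0037 to 0.038. In H1975 it gave 6886 to 8233 genes and 17 to 19 of the 23, with a median of -0.015 to 0.020, and the F test called 17 to 19 of the 23. Where 1 library was left in a group it was assumed to vary like the others. Libraries with the same replicate number did not deviate together (the correlation was 0.037 for PC9, 0.089 for HCC827, -0.043 for H1975). Whether they were prepared together is not stated in the labels, and these correlations cannot show it. With the replicate block PC9 had 9 of the 23 and 1364 genes called, HCC827 had 7 and 2262, and H1975 had 19 and 7850. Low levels (ITGB2 in PC9, LAMC3 in H1975) rest on few reads.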
